A study of Mus musculus with 2 samples.

Results

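The Six-family, Eya and Dach genes make up 3 small groups of transcriptional regulators, and 9 of their genes are described here in tongues of mouse embryos at embryonic day 12: Six2, Six4, Six5, Eya1, Eya2, Eya3, Eya4, Dach1 and Dach2. They were taken by gene symbol from the 22072 symbols of the deposited tables, and the values of all transcript rows of a symbol were summed. Other Six-family genes were not analysed here. The mutant embryos carried a conditional (floxed) Osr1 allele over a null allele together with a Wnt1cre transgene (Osr1f/-; Wnt1cre), and the control embryos carried the conditional allele beside a wild-type one (Osr1f/+). Osr1 is an odd-skipped gene, coding for a transcription factor with zinc fingers. Both groups were on a mixed background and shared the conditional allele, and the control label names no Cre. Wnt1cre acts in neural crest and its descendants, which form the connective tissue of the tongue, so muscle, epithelium, vessels and blood of the mutant kept the conditional allele but carried the null allele. The design text speaks of 3 pairs of control and mutant tongues pooled for RNA extraction. Each genotype was sequenced as 1 library with no replicate, so every ratio compares 2 libraries, no test between genotypes could be made, and variation between embryos is not in any value.

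Six-family proteins are homeobox transcription factors. Most of them activate genes little by themselves and work with Eya proteins, which do not bind DNA, carry a phosphatase domain and bring coactivators to the bound sites. Dach proteins are related to the Ski corepressors and take part in repression at the same sites. The network is known for muscle precursors, where Six-family factors bind MEF3 sites in genes such as Myog, and for the inner ear, kidney and craniofacial mesenchyme.

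Levels are in FPKM, a number of fragments divided by the length of the transcript and the size of the library. Comparisons of levels between genes rest on this scale, and other differences between genes in how well they were read were not corrected here. Depth was estimated at about 23100000 reads for the mutant and 18900000 for the control library. A gene counted as measured when 1 FPKM was reached in either library with no row of another status than OK, which left 12383 genes, and the median log2 ratio of mutant over control among them was 0.0035. The central 95% of these log2 ratios, taken after adding 1 to each FPKM, ran from -0.31 to 0.36. Osr1 itself had 18.4 FPKM in the mutant and 56.8 FPKM in the control library, a ratio of 0.325 with a 95% counting interval of 0.300 to 0.352. Counting intervals are exact conditional intervals from approximate read numbers and hold only the error of counting reads in 1 library per genotype. Reads copied by amplification do not stand for separate molecules, so the intervals may be too narrow even for that error.

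In the Eya family 3 of 4 genes and in the Six-family set 2 of 3 genes were higher in the mutant library by more than their counting error, and neither Dach gene was. Of the 9 genes, 8 were measured and Dach2 stayed under 1 FPKM in both libraries. Among the 8 measured genes 7 were higher and 1 was lower in the mutant library, where 51.2% of all measured genes were higher. By the threshold of 1.2-fold on FPKM plus 1, 3 of the 8 were higher (37.5%), against 4.77% of all measured genes, and 0 were lower, against 3.46%. A counting interval wholly above 1 was found for 5 of the 8, against 10.7% of all measured genes, and for 0 of them it lay wholly below 1, against 10.2%. The interval narrows as reads increase, and all measured genes were not matched to the 8 for read number, so these shares may be at unlike depth. On the scale of FPKM plus 1 no member reached 1.5-fold in either direction, against 0.896% of all measured genes in the higher and 0.581% in the lower direction. The plain ratio of Eya1 was 1.52. The median log2 ratio of the 8 was 0.19. The genes were proposed with earlier results of these data known, so these counts are descriptions. In RNA of whole tongue, more cells of a type and more RNA per cell cannot be told apart.

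**Figure D1:**
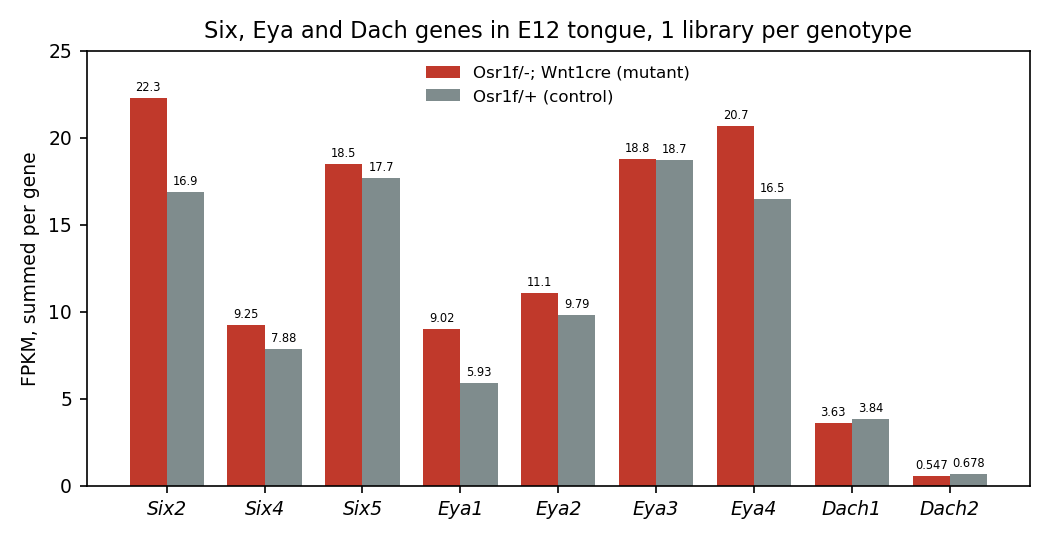
FPKM of the 9 genes (vertical axis) in the mutant library (red, left bar of each pair) and the control library (grey, right bar), 1 library each. The red bar is visibly taller for Six2, Eya1 and Eya4, level with the grey bar for Eya3, and slightly shorter for Dach1 and Dach2.

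Among the Six-family genes, which encode the DNA-binding subunits, Six2 differed most. Six2, a homeobox factor that keeps progenitor cells undifferentiated in the mouse kidney and is made in facial mesenchyme, lies on mm9 chromosome 17 from 86083608 to 86087594 as a single transcript row of 2108 nt (NM_011380). It had 22.3 FPKM in the mutant and 16.9 FPKM in the control library, from about 1089 reads in the mutant and 672 in the control. The mutant library was 1.32 times the control library (counting interval 1.2 to 1.46), and 97.8% of measured genes had a lower log2 ratio than its 0.38. In the mutant library Six2 was the most abundant of the 9 genes, whereas Eya3 and Six5 lay above it in the control library. Within counting error Six2 overlapped Eya4 in the mutant library and both Eya3 and Six5 in the control library.

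Six4, a homeobox factor of muscle precursors that was first found by its binding to a regulatory element of a sodium pump gene, lies on chromosome 12 from 74201246 to 74214232 (NM_011382, 5572 nt). It had 9.25 FPKM in the mutant and 7.88 FPKM in the control library, from about 1191 reads in the mutant and 828 in the control. The ratio was 1.17 (1.07 to 1.28), so the value was higher by more than counting error and stayed below the 1.2-fold threshold. Its log2 ratio of 0.21 lay above that of 92.3% of measured genes.

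Six5, whose human counterpart lies beside the myotonic dystrophy gene, was nearly level. On chromosome 7 (19679893 to 19683694, NM_011383, 2853 nt) it had 18.5 FPKM in the mutant and 17.7 FPKM in the control library, a ratio of 1.04 (0.957 to 1.14) from about 1217 reads in the mutant and 953 in the control. Dmpk, the mouse counterpart of the myotonic dystrophy gene, ends 724 bases before the Six5 model and does not overlap it. Dmpk had 14.2 FPKM in the mutant and 12.2 FPKM in the control library, a ratio of 1.16 (1.05 to 1.29). Six2 and Six5 exchanged order between the libraries. In the control library their levels overlapped within counting error, at 15.6 to 18.2 FPKM for Six2 and 16.6 to 18.9 FPKM for Six5. Six2 was 1.21 times Six5 in the mutant and 0.954 times Six5 in the control library, so of the FPKM summed over the 3 Six-family genes Six2 held 44.6% in the mutant and 39.8% in the control, while Six4 held 18.5% in both.

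Among the promoter sequences at hand for the 9 genes, that of Six4 holds the letters to which Six-family factors bind. The motif searched was the MEF3 site, TCAGGTTTC or GAAACCTGA on the other strand, in windows from 250 bases before to 50 bases after each transcript start in RefSeq (GRCm38.p6). Of 32851 windows of this length 141 held it, or 0.429%. Promoter entries were found for 7 of the 9 genes, with 10 windows in all, and 1 of the 7 genes held the motif. Eya1 and Eya2 had no entry, so their promoters were not searched. Of the 13 listed target genes of Six-family and Eya factors 8 had an entry, and the only one with the motif was Myog, which encodes myogenin. The 250 bases before the start are shown for these 2 genes, with the motif in capitals, because they are the 2 windows among the members and listed targets with the full site.
Six4 promoter, chr12:73113246-73113495, minus strand, motif from -99 to -91 counted from the transcript start: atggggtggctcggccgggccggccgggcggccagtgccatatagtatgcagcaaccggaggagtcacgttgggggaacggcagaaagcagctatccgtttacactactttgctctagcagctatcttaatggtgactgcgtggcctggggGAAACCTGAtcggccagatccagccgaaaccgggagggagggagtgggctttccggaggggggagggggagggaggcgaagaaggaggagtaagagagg
Myog promoter, chr1:134289754-134290003, plus strand, motif from -84 to -76: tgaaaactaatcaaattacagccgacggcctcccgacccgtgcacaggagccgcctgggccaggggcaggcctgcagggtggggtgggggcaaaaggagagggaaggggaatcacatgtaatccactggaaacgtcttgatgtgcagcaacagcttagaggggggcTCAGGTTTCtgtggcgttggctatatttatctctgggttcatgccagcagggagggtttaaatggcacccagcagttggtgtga
In the Six4 window the site is read on the strand opposite to the gene, and in the Myog window on the strand of the gene. Myog had 84.9 FPKM in the mutant and 80.8 FPKM in the control library, a ratio of 1.05 (0.994 to 1.11), beside the ratio of 1.17 for Six4. A match of letters is a description of the window and does not show that a factor was bound there.

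Eya1 had the largest ratio of the 9 genes. Eya1 encodes a coactivator and phosphatase whose loss in mice leaves the ear and kidney undeveloped, and it acts with Six-family factors in muscle precursors. On chromosome 1 (14159039 to 14300280, NM_010164, 4330 nt) it had 9.02 FPKM in the mutant and 5.93 FPKM in the control library, from about 903 reads in the mutant and 485 in the control. The ratio was 1.52 (1.36 to 1.70). Its log2 ratio of 0.53 was exceeded by 129 of the 12383 measured genes and lay above that of 99.0% of them. The nearest measured named genes on either side, chosen after their values were seen, had intervals that include 1. Lactb2, about 508 kb away, had 3.15 FPKM in the mutant and 3.09 FPKM in the control library, a ratio of 1.02 (0.785 to 1.32). Msc, about 443 kb away, encodes a bHLH factor of branchial muscle precursors and had 9.86 FPKM in the mutant and 10.8 FPKM in the control library, a ratio of 0.913 (0.790 to 1.06).

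Eya4, mutated in a form of human hearing loss, was higher as well. On chromosome 10 (22823974 to 23069709, NM_010167, 4099 nt) it had 20.7 FPKM in the mutant and 16.5 FPKM in the control library, from about 1957 reads in the mutant and 1276 in the control, a ratio of 1.25 (1.17 to 1.34). Its log2 ratio of 0.31 lay above that of 96.5% of measured genes. On one side of Eya4, about 284 kb away, Tcf21, a bHLH factor of branchial muscle precursors and mesenchyme, had 2.39 FPKM in the mutant and 3.77 FPKM in the control library, a ratio of 0.632 (0.453 to 0.876). On the other side, about 435 kb away, the ribosomal protein gene Rps12 had a ratio of 1.01 (0.982 to 1.04). The nearest measured named genes around Six2 were Prepl, about 594 kb away, and Srbd1, about 296 kb away, with ratios of 0.971 (0.901 to 1.06) and 0.986 (0.876 to 1.11).

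Eya2, a coactivator of muscle precursors and placodes, lies on chromosome 2 (165480798 to 165597131, NM_010165, 2364 nt). It had 11.1 FPKM in the mutant and 9.79 FPKM in the control library, from about 608 reads in the mutant and 437 in the control. Its ratio of 1.14 had a counting interval of 1.003 to 1.29, whose lower end is close to 1, and 89.3% of measured genes had a lower log2 ratio. Eya3, a broadly expressed gene of the family, was level. On chromosome 4 (132194961 to 132280678) it had 18.8 FPKM in the mutant and 18.7 FPKM in the control library, a ratio of 1.01 (0.944 to 1.07) from about 2242 reads in the mutant and 1822 in the control. Its interval did not overlap those of Eya1 and Eya4.

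The share of each Eya gene followed its ratio. Of the FPKM summed over the 4 Eya genes, 59.6 in the mutant and 50.9 in the control library, Eya1 held 15.1% in the mutant and 11.6% in the control. Eya4 held 34.7% in the mutant and 32.4% in the control, Eya2 18.7% in the mutant and 19.2% in the control, and Eya3 31.5% in the mutant and 36.7% in the control. Eya4 was the most abundant Eya gene in the mutant library and Eya3 in the control library. Eya3 was 2.09 times Eya1 in the mutant and 3.16 times Eya1 in the control library.

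**Figure D2:**
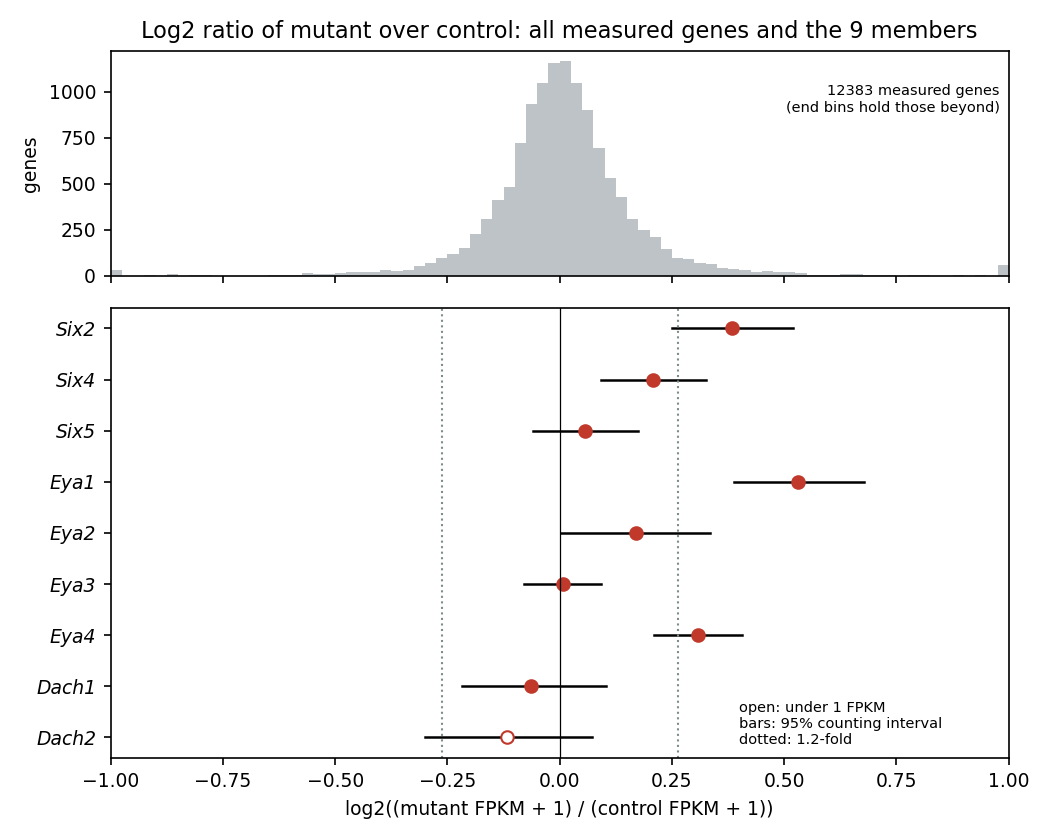
Upper panel, number of measured genes (vertical axis) by log2 ratio of mutant over control FPKM plus 1; lower panel, the same log2 ratio for the 9 genes with 95% counting intervals, Dach2 open because it stayed under 1 FPKM. Eya1 at 0.53, Six2 at 0.38 and Eya4 at 0.31 lie beyond the dotted 1.2-fold line, and the intervals of Six5, Eya3, Dach1 and Dach2 include 0.

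The Dach genes, the repressive side of the network, had intervals that include 1 when summed per gene. Dach1 on chromosome 14 (98186066 to 98568762) had 3.63 FPKM in the mutant and 3.84 FPKM in the control library, a ratio of 0.945 (0.824 to 1.09) from about 430 reads in the mutant and 370 in the control. It was the only measured member with a lower value in the mutant library, and 26.4% of measured genes had a lower log2 ratio. Dach2 on the X chromosome (110411865 to 110949995) had 0.547 FPKM in the mutant and 0.678 FPKM in the control library, from about 59 reads in the mutant and 62 in the control. Its ratio of 0.808 has an interval of 0.535 to 1.13, so a difference of this size was not detectable at this depth. Dach1 was 6.64 times Dach2 in the mutant and 5.67 times Dach2 in the control library.

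Dach1 has 2 transcript rows, both with reads in each library. NM_007826 (5225 nt) holds 1 exon more than NM_001038610 (5069 nt). By the GENCODE M21 annotation of GRCm38 this is exon 4 of 12, a coding exon of 156 bases, or 52 codons, at chr14:97916393-97916548 on the minus strand. Its sequence is shown because reads on it and its junctions are what separates the rows.
Dach1 exon 4: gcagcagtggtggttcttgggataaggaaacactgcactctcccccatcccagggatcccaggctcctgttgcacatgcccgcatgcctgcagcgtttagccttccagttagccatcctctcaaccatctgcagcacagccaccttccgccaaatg
The row with the exon had 1.21 FPKM in the mutant and 0.859 FPKM in the control library, a ratio of 1.41 (1.07 to 1.85). The row without it had 2.43 FPKM in the mutant and 2.98 FPKM in the control library, a ratio of 0.812 (0.688 to 0.962). The row with the exon thus held 33.2% of Dach1 in the mutant and 22.3% in the control library. These intervals take the authors' estimated split of reads as given and hold no error of that split. The listed split of Eya3 differed as well, where NM_010166 (5187 nt) was listed at 3.83e-05 FPKM in the mutant and 0.998 FPKM in the control library, while NM_210071 (5158 nt) had 18.8 FPKM in the mutant and 17.7 FPKM in the control and the sum was level. Dach2 was divided too, with NM_033605 holding 45.0% of it in the mutant and 38.2% in the control library, but its 2 rows rested on about 42 and 17 reads in the mutant and about 47 and 15 reads in the control library. The other 6 members had 1 row each, and no member overlapped the model of another gene.

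**Figure D3:**
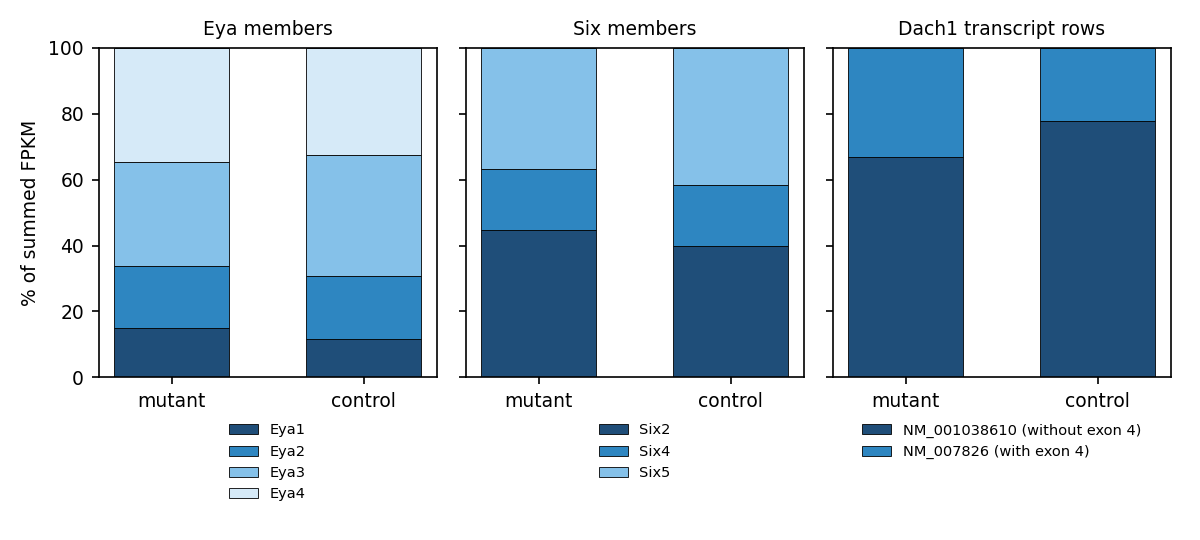
Share of the summed FPKM (percent, vertical axis) held by each Eya gene, each Six-family gene and each Dach1 transcript row, with the mutant library left and the control library right in every panel. Eya1 holds 15.1% in the mutant and 11.6% in the control library, and the Dach1 row with exon 4 holds 33.2% in the mutant and 22.3% in the control.

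The order of levels followed from these values. In the mutant library the order from high to low was Six2, Eya4, Eya3, Six5, Eya2, Six4, Eya1, Dach1 and Dach2. In the control library it was Eya3, Six5, Six2, Eya4, Eya2, Six4, Eya1, Dach1 and Dach2, so only the upper 4 places differed. Several neighbours in this order lay within counting error of each other. The intervals given here hold counting error only, and differences between genes in amplification are not in them. In the mutant library the exact Poisson interval of Six2, 21.0 to 23.7 FPKM, overlapped that of Eya4, 19.8 to 21.6 FPKM. Eya4 lay above Eya3 in the mutant library, whose interval was 18.0 to 19.6 FPKM, and Eya3 and Six5 overlapped. Six4 and Eya1 overlapped in the mutant library, at 8.73 to 9.79 and 8.44 to 9.63 FPKM, and did not overlap in the control library, at 7.35 to 8.44 and 5.42 to 6.48 FPKM. In the control library the 4 upper genes formed a run of overlapping intervals from 15.6 to 19.6 FPKM.

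Genes whose proteins work with the network were close to level. The list of partners and corepressors held 12 genes, all measured, with 8 higher and 4 lower and a median log2 ratio of 0.03. Of these, 0 were past 1.2-fold in either direction, against 4.77% of all measured genes higher and 3.46% lower. In a list of 12 genes a count of 0 is near these shares. Tle1, a Groucho-type corepressor that can bind Six-family proteins, had 19.0 FPKM in the mutant and 16.7 FPKM in the control library, a ratio of 1.14 (1.06 to 1.22). Ski, the corepressor related to Dach, had 44.5 FPKM in the mutant and 42.9 FPKM in the control library, a ratio of 1.04 (0.997 to 1.08), and its relative Skil had a ratio of 1.05 (0.985 to 1.12). The mouse homologue of the fly sine oculis-binding protein gene, Sobp, had a ratio of 1.10 (1.0 to 1.21).

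Reported target genes of Six-family and Eya factors were mostly close to level. Of 13 listed genes 10 were measured, with 7 higher and 3 lower and a median log2 ratio of 0.07. Of the 10, 1 was past 1.2-fold higher, against 4.77% of all measured genes, and 0 were lower, against 3.46%. The 1 target was Sall1, a zinc finger factor of kidney and limb development. Sall1 had 1.45 FPKM in the mutant and 0.689 FPKM in the control library, a ratio of 2.10 (1.59 to 2.84). It reached 1 FPKM in the mutant library alone, which leaves higher as its one possible direction. Dmrt2, a factor of the early muscle layer, had a ratio of 1.17 (0.893 to 1.54). Igfbp5, an IGF-binding protein gene reported downstream of Six5, had 192 FPKM in the mutant and 182 FPKM in the control library, a ratio of 1.06 (1.04 to 1.08). Ezr, which encodes the membrane linker ezrin, had a ratio of 1.07 (0.954 to 1.21). The muscle regulators Myf5 and Myod1 had ratios of 0.910 (0.776 to 1.07) and 0.937 (0.876 to 1.0).

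Muscle genes, which mark the cells best known for this network, are given beside the members. Of 14 listed muscle progenitor genes and regulators 13 were measured, with 2 higher and 11 lower, where 51.2% of all measured genes were higher. Their median log2 ratio was -0.12. The counting interval included 1 for 8 of the 13, lay wholly below 1 for 4 and wholly above 1 for 1. The part of muscle cells in the values of the members was not tested. Pax3, Tcf21 and Lbx1 were past 1.2-fold lower, 3 of the 13, against 3.46% of all measured genes. Pax3, a paired box factor of muscle precursors and neural crest, had 1.84 FPKM in the mutant and 2.91 FPKM in the control library, a ratio of 0.631 (0.503 to 0.770). Lbx1, a homeobox factor of migrating muscle precursors, had a ratio of 0.798 (0.597 to 1.05), and Tbx1, a factor of branchial muscle and other head tissue, had 0.868 (0.796 to 0.946). Contractile genes had 7 higher and 5 lower of 12 measured and a median log2 ratio of 0.07. Past 1.2-fold were 0 of the 12, near the 4.77% of all measured genes that were higher and the 3.46% that were lower. Tnnc1 was at 1.17 (1.06 to 1.29) and Myh8 at 0.877 (0.818 to 0.940). Of the 5 muscle markers 3 were higher and 2, Myod1 and Des, lower, with a summed FPKM of 546 in the mutant and 518 in the control library, a ratio of 1.06. Actc1, the cardiac actin gene, made up 322 FPKM of that sum in the mutant and 298 FPKM in the control library.

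Markers of other cell types in the dissection differed between the libraries too, and their part in the values of the members was not tested. The 7 cartilage markers had a summed FPKM of 205 in the mutant and 146 in the control library and a median log2 ratio of 0.41. The 5 that reached 1 FPKM in both libraries, Sox9, Sox5, Sox6, Col2a1 and Col9a1, were higher. All of these but Sox6 were past 1.2-fold, against 4.77% of all measured genes. Acan and Matn1 reached 1 FPKM in the mutant library alone, which leaves higher as their one possible direction, and their ratios were 1.5 (1.18 to 1.90) and 1.58 (0.970 to 2.60). Sox9, the regulator of cartilage fate, had a ratio of 1.69 (1.57 to 1.82). The 4 Hox genes of tissue behind the tongue were higher as well, with summed FPKM of 30.2 in the mutant and 24.7 in the control library, of which Hoxb3 had a ratio of 1.41 (1.23 to 1.65). Cranial mesenchyme markers were close to level, with 4 of 5 higher and summed FPKM of 221 in the mutant and 211 in the control library.
All 6 epithelial and all 5 erythroid markers were lower, with summed FPKM of 95.2 and 1071 in the mutant and 111 and 1314 in the control library. Sensory ganglion and placode neurons, where Eya and Six-family genes are also known, had 5 of 8 markers measured and a summed FPKM of 15.1 in the mutant and 18.7 in the control library. Among them Neurog1 was listed at 0 in both libraries and Neurod1 at 0 in the mutant, and Tubb3 had a ratio of 0.5 (0.397 to 0.626). Glial markers had summed FPKM of 23.1 in the mutant and 27.0 in the control library, endothelial markers 49.4 in the mutant and 46.4 in the control, and macrophage markers 9.05 in the mutant and 8.81 in the control. Sex-linked genes also differed, as Xist had 86.1 FPKM in the mutant and 61.1 FPKM in the control library. All 4 listed Y-linked genes had lower values in the mutant library. Ddx3y had a ratio of 0.758 (0.692 to 0.831) and Kdm5d 0.735 (0.641 to 0.842). The intervals of Eif2s3y, 0.871 (0.750 to 1.01), and Uty, 0.899 (0.761 to 1.06), include 1. Dach2 is the X-linked member.

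**Figure D4:**
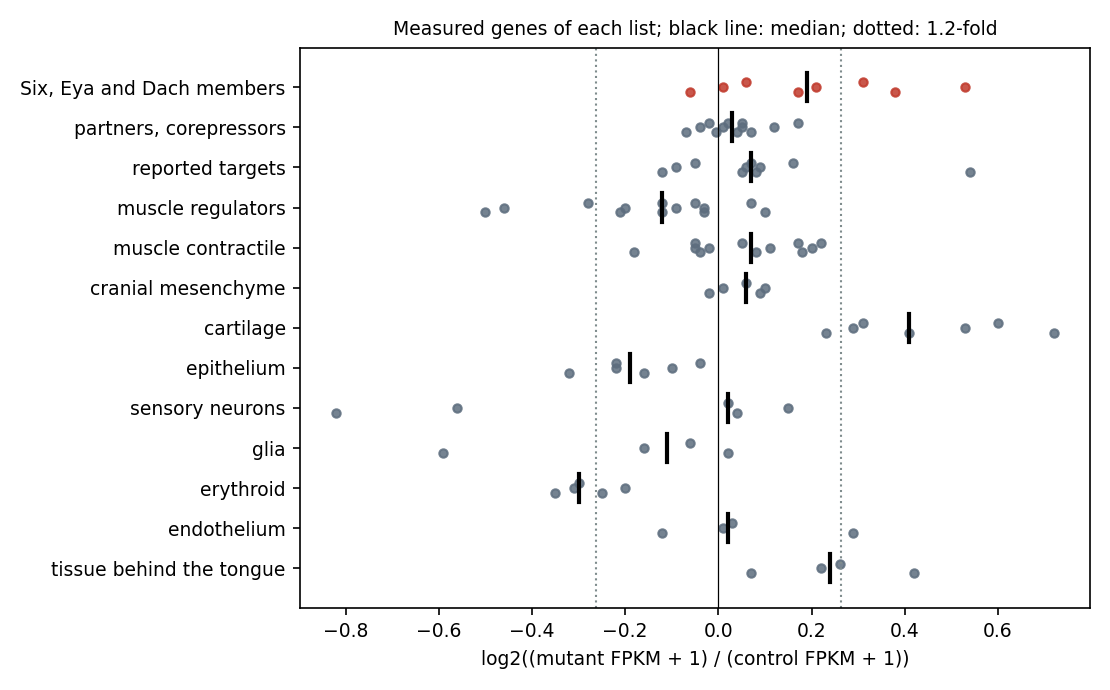
Log2 ratio of mutant over control FPKM plus 1 (horizontal axis) for every measured gene of each list, 1 point per gene, with the list's median as a black line and the 1.2-fold threshold dotted. The 8 measured members have a median of 0.19, the partners and corepressors 0.03, the reported targets 0.07, the muscle regulators -0.12 and the cartilage markers 0.41.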

How the data were processed

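Total RNA of pooled embryonic tongues was extracted with a Qiagen micro kit and made into cDNA by a NuGEN Ovation v2 kit, per the labels' protocols. Bowtie 0.12.7, TopHat 1.4.1 and build mm9 are named, per the submitters' processing notes. Each deposited FPKM value belongs to 1 RefSeq transcript, in a Cufflinks layout, per the file headers. A deposited coverage signal, not scaled for depth, stands beside them. Neither strandedness nor the Cufflinks version is given in the sources used here.

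FPKM was summed per symbol, and genes needed at least 1 FPKM in either library and status OK in all rows. Log2 ratios used a pseudocount of 1, which understates differences of low genes. Coverage times length clustered at 47.4 bases, taken as 1 read, which gave approximate reads and exact conditional (Clopper-Pearson) 95% intervals. The calculation was tested on simulated data. Python 3.11.15, numpy 2.4.6, pandas 2.3.3 and scipy 1.17.1 were used. Coordinates of genes are mm9, counted from 1, and those of printed sequences GRCm38. The members and lists were chosen with earlier results of these data known. Named genes were the members, Osr1, up to 4 genes a list with the largest absolute log2 ratio at 5 FPKM or more, and known partners, targets or neighbours. Genes named from the lists under 5 FPKM and the neighbours outside the lists were chosen after their values were seen. Some genes that this rule names are not reported here.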

Additional observations from a re-analysis of the deposited data

How the results depend on the processing

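With a fold threshold of 1.5 the count of members that were higher fell to 0, against 3 at 1.2-fold. Pseudocounts of 0.1 and 0, centring on the median gene, the TPM scale, quantile normalization, no filter and a minimum of 5 FPKM each gave 3 members higher, and every one of these settings gave 0 lower. The log2 ratio of Eya1 ran from 0.52 to 0.60 over 7 alternatives, that of Six2 from 0.38 to 0.40 and that of Eya4 from 0.30 to 0.32. For Dach1, using the highest transcript row alone gave -0.22, outside the counting interval of the summed gene. The medians of the 4 lists of partners, targets, muscle regulators and contractile genes kept their sign under each alternative run. No paired analysis was possible because each genotype had 1 library, and for the same reason no library could be left out. At this depth 3 reads on a transcript of 1 kb would be 0.130 FPKM in the mutant and 0.159 FPKM in the control library. On the shorter Dach2 row 3 reads would be 0.0431 FPKM in the mutant and 0.0528 FPKM in the control library. Dach2 lay above this, at 0.547 FPKM in the mutant and 0.678 FPKM in the control library. Its limit was the small number of reads, about 59 in the mutant and 62 in the control library.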
